A study of Homo sapiens with 6 samples.

Results

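The 9 genes LAMA5, LAMB1, LAMB2, LAMC1, NID1, NID2, HSPG2, AGRN and DAG1 encode laminin chains, nidogens, heparan sulfate proteoglycans and dystroglycan of the basement membrane. They were chosen by gene symbol, and each was measured by 1 probe set with values on all arrays, so that 9 of the 19898 genes with a tested probe set are described. The arrays came from MDA-468.shp53, by its name the breast cancer line MDA-MB-468, which has mutant p53, with an shRNA construct against p53. Cultures were kept under 3D conditions for 8 days with doxycycline (+DOX), commonly used to induce such constructs, or without it (-DOX). Both groups are the same line and carry the same construct, and 3 independent experiments gave 1 array of each group. No doxycycline control lacking the shRNA was analysed here, so drug and hairpin cannot be told apart, and nothing in the labels says whether the line is 1 clone.

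Basement membranes are thin sheets of matrix under epithelia. Laminins are trimers of an alpha, a beta and a gamma chain that polymerise at the cell surface and start the sheet; nidogens and the proteoglycan perlecan link that network to collagen IV, and agrin and laminin bind the receptor dystroglycan through its sugar chains. In the mammary gland, contact with laminin through integrins and dystroglycan is known to support acinar polarity and milk protein expression in culture.

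Across the array, 3580 of 28026 tested probe sets met the threshold, a Benjamini-Hochberg adjusted p of 0.05 in limma with the experiment as a term. Arrays within a group correlated at 0.991 to 0.997, and arrays of different groups at 0.983 to 0.991. All 8 breast epithelial markers checked, among them KRT19, EPCAM, CDH1 and EGFR, were in the upper quartile of array signal, with mean log2 values between 10.05 (CLDN4) and 13.03 (KRT19). Their summed level was 15.10 to 15.30 on +DOX arrays and 15.36 to 15.48 on -DOX arrays. With doxycycline 2 of these 8 genes fell past the threshold and none rose past it. The fibroblast list of 8 genes had summed levels of 9.97 to 10.10 on +DOX arrays and 9.97 to 10.20 on -DOX arrays, and its defining genes included LUM, at a mean of 4.12, and COL1A1, at 8.81. Endothelial and muscle lists, of 5 genes each, summed to 8.97 to 9.12 and 9.32 to 9.36 with doxycycline, against 8.97 to 9.18 and 9.36 to 9.57 without it. On log2 array values no gene is at 0. In the leukocyte list of 5 genes PTPRC was lowest, at 4.19, and CD14 highest, at 10.90, and the list summed to 10.91 to 11.29 on +DOX arrays and 11.38 to 11.79 on -DOX arrays. FAP of the fibroblast list (-0.36) and CD14 (-0.65) fell. All FAP values, 4.94 to 5.46, lay below the lower quartile of array signal, 5.79, and the files give no detection call. The 5 proliferation markers all fell, and their summed level was 11.66 to 12.06 on +DOX arrays and 12.49 to 12.73 on -DOX arrays; their part in the results below was not tested. In such bulk samples fewer cells of a kind and less RNA per cell cannot be told apart.

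LAMB1 and DAG1 fell with doxycycline, and the other 7 genes did not pass the threshold. Thus 2 of 9 genes were called, 22.2%, against 12.8% of all probe sets, and both were lower, against 6.63% of all probe sets called lower and 6.14% called higher. The median log2 change was -0.08 over the 9 genes and -0.01 over all probe sets tested. The groups did not overlap for 2 of the 9 genes, LAMB1 and DAG1, against 24.9% of all probe sets. The sign of the change was the same in all 3 experiments for 4 genes (LAMB1, LAMB2, HSPG2 and DAG1), against 42.6% of all probe sets. With 2 calls among 9 genes, these counts describe the genes and set the family apart from no other.

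**Figure D1:**
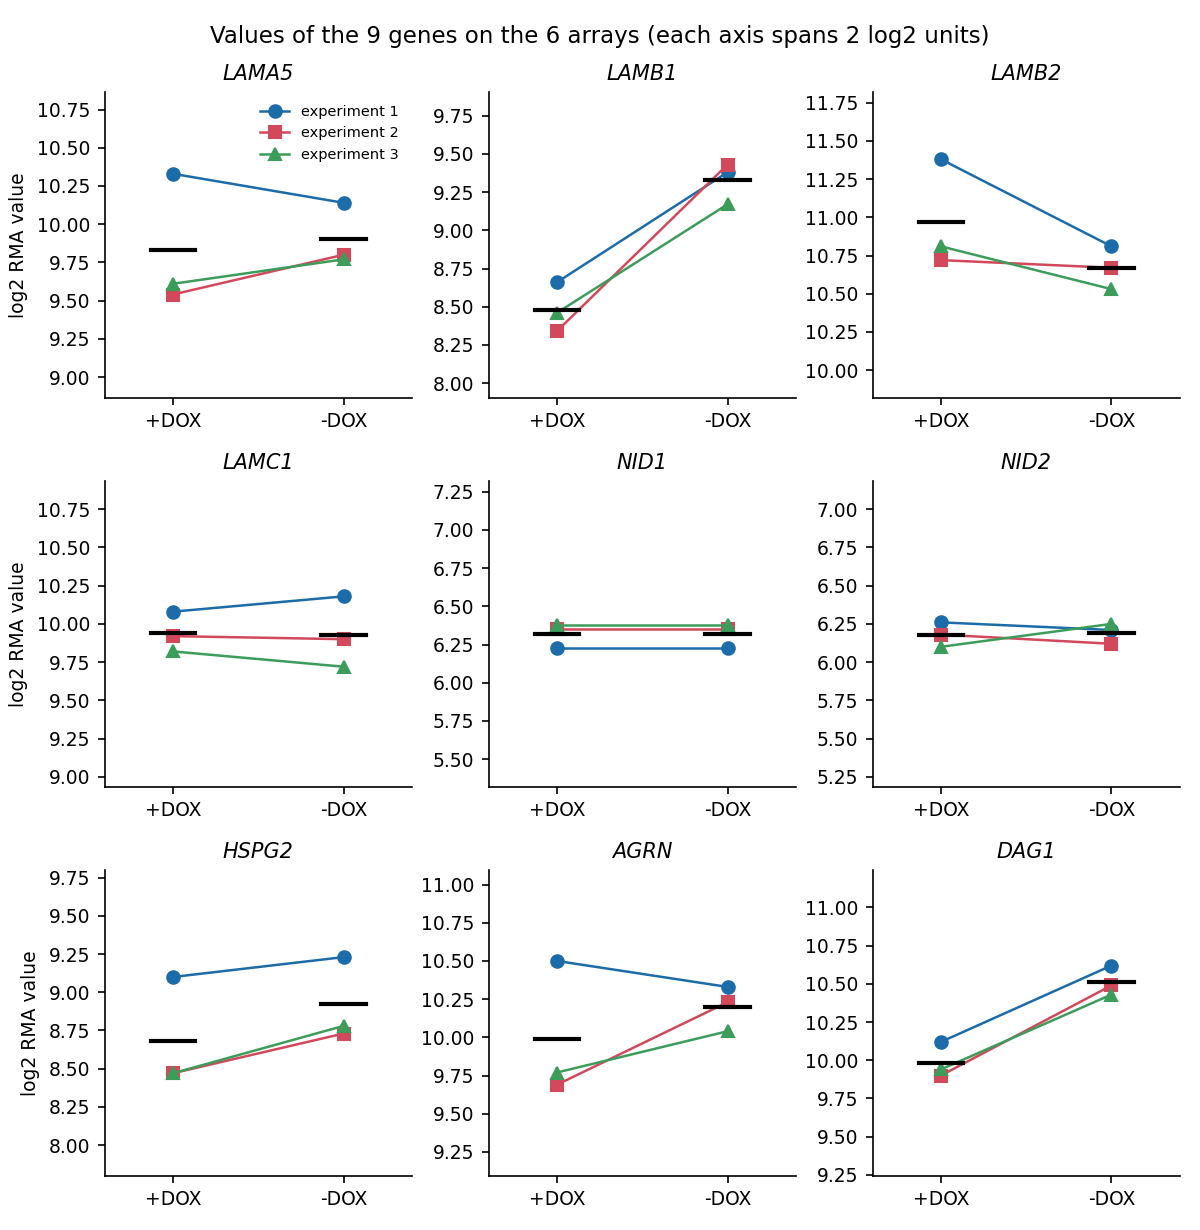
Log2 RMA value of each of the 9 genes on each array, with +DOX on the left and -DOX on the right of each panel. Lines join the arrays of an experiment, black bars are group means (n = 3), and each vertical axis spans 2 log2 units around the gene's own level. The +DOX arrays lie below all -DOX arrays for LAMB1 and DAG1, and experiment 1 lies above the others in both groups for 6 genes.

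LAMB1, which encodes a beta chain common to many laminins, had the largest fall among the 9 genes. Its log2 values were 8.66, 8.34 and 8.46 on the +DOX arrays of experiments 1, 2 and 3, against 9.38, 9.43 and 9.17 on the -DOX arrays. Every +DOX array was thus below every -DOX array, and experiment 2 showed the widest gap. The means were 8.48 ± 0.16 with doxycycline and 9.33 ± 0.13 without it (SD, n = 3 each), a 1.79-fold fall (log2 change -0.84, SE 0.1, 95% interval -1.08 to -0.60, limma adjusted p = 0.00291). Its probe set of 42 probes spans chr7:107351499-107431040 on the minus strand in NCBI build 36 and takes in the gene as a whole, so that isoforms and exons were not resolved.

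LAMB2, the alternative beta chain that takes the place of LAMB1 in some laminin trimers, was not lower with doxycycline in any experiment. Its log2 values were 11.38, 10.72 and 10.81 on the +DOX arrays, against 10.81, 10.67 and 10.53 on the -DOX arrays. Each experiment had the higher value with doxycycline, by 0.57, 0.05 and 0.28, but the groups overlapped and the change of 0.30 (SE 0.11, 95% interval 0.04 to 0.56) did not pass (limma adjusted p = 0.14). The estimate was 0.17 without experiment 1 (limma adjusted p = 0.511) and 0.42 without experiment 2 (0.0946). The change of LAMB1 minus that of LAMB2 was -1.29, -1.15 and -0.999 in the 3 experiments, with a mean of -1.14 ± 0.14 (SD, n = 3). It had the same sign in 3 of 3 experiments, and the exact two-sided sign-flip test gave p = 0.25, the smallest that 3 experiments allow. RefSeq also lists a LAMB2 pseudogene, LAMB2P1, and whether its transcripts reach the LAMB2 probes was not tested.

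**Figure D2:**
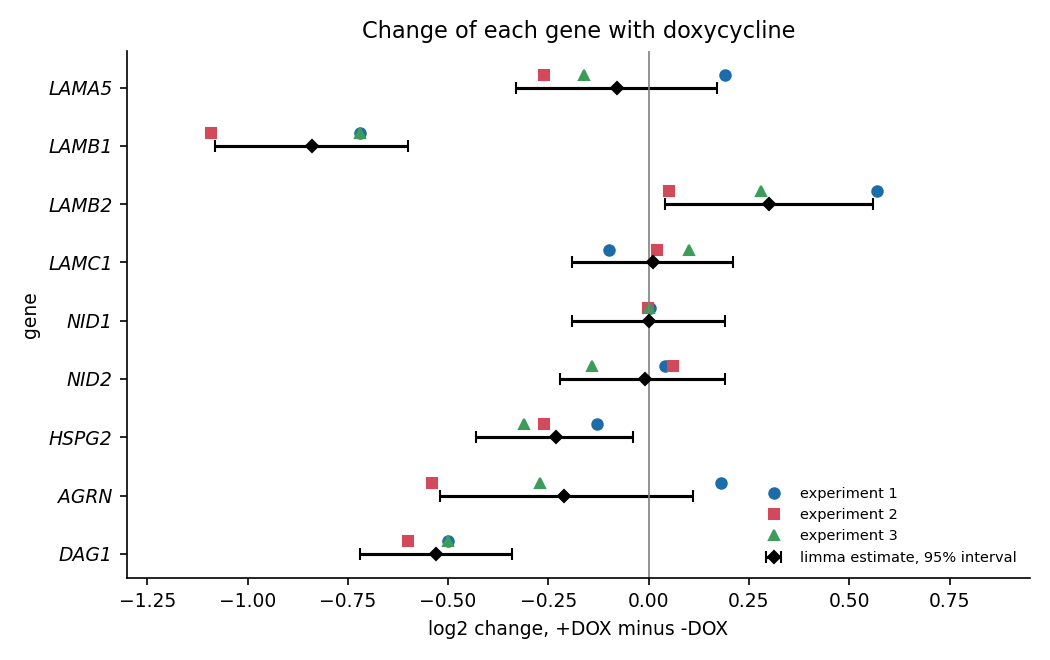
Log2 change of each gene, +DOX minus -DOX, with the limma estimate and its 95% interval as a black diamond and bar, and the change within each experiment as a coloured symbol. LAMB1 (-0.84), DAG1 (-0.53) and HSPG2 (-0.23) lie to the left of 0 in every experiment, and LAMB2 lies to the right. LAMA5, AGRN, LAMC1 and NID2 lie on both sides, and the NID1 symbols coincide at 0.

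The remaining laminin chains of the group showed no call. LAMC1, the gamma chain that pairs with either beta chain, had log2 values of 10.08, 9.92 and 9.82 on the +DOX arrays, against 10.18, 9.90 and 9.72 on the -DOX arrays. Its groups overlapped almost wholly, and the 95% interval of its change, -0.19 to 0.21, holds 0 and leaves out a fall of the size seen for LAMB1. LAMA5, the alpha chain typical of mature epithelial basement membranes, had log2 values of 10.33, 9.54 and 9.61 on the +DOX arrays, against 10.14, 9.80 and 9.77 on the -DOX arrays. It was higher with doxycycline in experiment 1 and lower in experiments 2 and 3 (0.19, -0.26 and -0.16), and the change of -0.08 (SE 0.11, 95% interval -0.33 to 0.17) did not pass (limma adjusted p = 0.793).

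DAG1 encodes both subunits of dystroglycan, a receptor that binds laminin, agrin and perlecan outside the cell and the dystrophin complex inside. Its log2 values were 10.12, 9.90 and 9.94 on the +DOX arrays, against 10.62, 10.49 and 10.43 on the -DOX arrays. All +DOX values were below all -DOX values, and the changes of -0.50, -0.60 and -0.50 were close to each other. The means were 9.98 ± 0.12 with doxycycline and 10.51 ± 0.09 without it (SD, n = 3 each), a 1.44-fold fall (log2 change -0.53, SE 0.082, 95% interval -0.72 to -0.34, limma adjusted p = 0.00705). The 26 probes of its probe set span chr3:49482595-49548048 on the plus strand in build 36. The design text of the series selects probe sets at the 1% level of a paired test on each probe. By that rule DAG1 was selected (unadjusted p = 0.00377) and LAMB1 was not (0.0209), so 1 of 9 genes was selected, against 4.16% of all probe sets, and after adjustment no probe set passed.

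HSPG2, which encodes perlecan, and AGRN, which encodes agrin, are secreted proteoglycans that carry heparan sulfate. HSPG2 had log2 values of 9.10, 8.47 and 8.47 on the +DOX arrays, against 9.23, 8.73 and 8.78 on the -DOX arrays. It was lower with doxycycline in each experiment, by 0.13 to 0.31 in size, while the step between experiment 1 and the others was larger and the groups overlapped (log2 change -0.23, SE 0.085, 95% interval -0.43 to -0.04, limma adjusted p = 0.131). AGRN had log2 values of 10.50, 9.69 and 9.77 on the +DOX arrays, against 10.33, 10.23 and 10.04 on the -DOX arrays. Its change was 0.18 in experiment 1 and -0.54 and -0.27 in experiments 2 and 3 (log2 change -0.21, SE 0.13, 95% interval -0.52 to 0.11, limma adjusted p = 0.441). The estimate was -0.40 without experiment 1 (limma adjusted p = 0.0882) and -0.05 without experiment 2 (0.941), short of the threshold in both.

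NID1 and NID2 encode the nidogens, glycoproteins that bind the laminin gamma chain and collagen IV. Both probe sets lay below the median signal of the array, 7.50, unlike the other 7, and the files give no detection call. NID1 had log2 values of 6.23, 6.35 and 6.38 on the +DOX arrays and the same values, to 2 decimals, on the -DOX arrays. NID2 had 6.26, 6.18 and 6.10 on the +DOX arrays, against 6.21, 6.12 and 6.25 on the -DOX arrays. Neither change passed, with 95% intervals of -0.19 to 0.19 for NID1 and -0.22 to 0.19 for NID2. The change of NID1 minus that of NID2 was -0.04, -0.06 and 0.15, with a mean of 0.02 ± 0.11 (SD, n = 3; exact two-sided sign-flip p = 1).

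Levels in experiment 1 ranked first in both groups for most of the 9 genes, by margins that differed between genes. LAMA5, LAMB2, LAMC1, HSPG2, AGRN and DAG1 each had their highest +DOX value and their highest -DOX value in experiment 1, which is 6 of 9 genes, against 16.9% of all probe sets. The median change of the 9 genes was 0.0042, -0.26 and -0.16 in experiments 1, 2 and 3, and that of all probe sets was 0.01, 0.02 and -0.06. LAMB1 and DAG1 fell within each experiment and passed without experiment 1 (limma adjusted p = 0.0088 and 0.0259).

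The promoters of LAMB1, DAG1 and LAMB2 are shown because LAMB1 and DAG1 fell and LAMB2, the paralog of LAMB1, did not. Each is the 250 bases before the RefSeq start site in GRCh38.p14, written 5′ to 3′ on the gene's strand, at chr7:108003162-108003411 (minus), chr3:49469882-49470131 (plus) and chr3:49133051-49133300 (minus); for DAG1, which has more than 1 start site in RefSeq, the first by coordinate was taken. Capitals mark GC boxes (GGGCGG) and CCAAT boxes (CCAAT) on either strand.
LAMB1: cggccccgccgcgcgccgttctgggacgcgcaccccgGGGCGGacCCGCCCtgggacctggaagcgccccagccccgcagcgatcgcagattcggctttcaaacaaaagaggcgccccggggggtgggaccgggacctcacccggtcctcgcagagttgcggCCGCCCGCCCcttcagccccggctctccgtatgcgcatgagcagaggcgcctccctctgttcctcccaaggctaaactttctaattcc
DAG1: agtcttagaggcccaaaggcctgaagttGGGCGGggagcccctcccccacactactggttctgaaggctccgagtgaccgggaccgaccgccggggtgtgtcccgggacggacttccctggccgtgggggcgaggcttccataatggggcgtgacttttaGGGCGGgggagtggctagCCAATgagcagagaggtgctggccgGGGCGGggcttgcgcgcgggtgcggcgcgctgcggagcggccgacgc
LAMB2: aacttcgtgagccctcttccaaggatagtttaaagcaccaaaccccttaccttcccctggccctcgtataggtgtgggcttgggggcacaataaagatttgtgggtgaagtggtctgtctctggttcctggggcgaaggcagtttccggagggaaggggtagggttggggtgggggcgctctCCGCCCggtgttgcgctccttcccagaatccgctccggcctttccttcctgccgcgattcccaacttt
The windows held 4 GC boxes for LAMB1, 3 for DAG1 and 1 for LAMB2, and DAG1 also held 1 CCAAT box. Windows of other genes that were not called held 8 (HSPG2), 5 (LAMA5), 3 (LAMC1), 3 (NID2) and 1 (NID1). In the RefSeq promoter table used here 8 of the 9 genes were matched, and AGRN was not analysed. A GC box was present in 8 of these 8, against 42.6% of all 35116 promoter windows, and a CCAAT box in 3 (DAG1, NID1 and NID2), against 32% of all. The E-box CACGTG, the AP-1 motif TGANTCA and the TATA box TATAAA, searched on both strands, were in none of the 8 and in 6.34%, 6.57% and 10.7% of all windows. The 8 windows were 58.4% (LAMB2) to 82.8% (HSPG2 and LAMA5) G and C, against a median of 58% over all windows. These shares were not adjusted for base composition.

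Lists of related genes give the setting of these changes. With 1 probe set per gene, 16.0% of the 19898 genes passed, 8.00% higher and 8.00% lower, with a median change of -0.0025. Of 7 further laminin chains 2 fell and none rose, and the list median was -0.04. LAMA4, an alpha chain known from vessel and muscle basement membranes, had log2 values of 8.56, 8.51 and 8.39 on the +DOX arrays, against 9.63, 10.08 and 10.12 on the -DOX arrays (log2 change -1.46, SE 0.13, limma adjusted p = 0.00104). LAMB3, the beta chain of the laminin of hemidesmosomes, also fell (-0.58, SE 0.082, limma adjusted p = 0.00492). Its signal lay below the array median, at percentile 44.6 of the tested probe sets. The alpha chain of that laminin, LAMA3, had a change of -0.14 (SE 0.09) that did not pass. Among the 11 laminin chains described here the falls thus took in LAMA4, LAMB1 and LAMB3.

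Of 9 measured receptors of laminin and agrin, 4 fell and none rose, with a list median of -0.21. ITGB4, the beta integrin of hemidesmosomes, had log2 values of 10.38, 9.11 and 9.09 on the +DOX arrays, against 11.19, 10.88 and 10.64 on the -DOX arrays (log2 change -1.38, SE 0.17, limma adjusted p = 0.00311). BCAM, an immunoglobulin-type receptor of the LAMA5 chain, changed by -0.91 (SE 0.14), ITGA6, the alpha partner of ITGB4, by -0.45 (SE 0.096) and the collagen and laminin receptor chain ITGA2 by -0.39 (SE 0.095). The call on BCAM was lost without experiment 3 (limma adjusted p = 0.058), that on ITGA6 without experiment 1 or 2 (0.106 and 0.108). ITGA2 did not pass with any 1 of the experiments left out (0.0675 to 0.16), with equal array medians (0.0593) or with quantile normalization (0.0604).

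**Figure D3:**
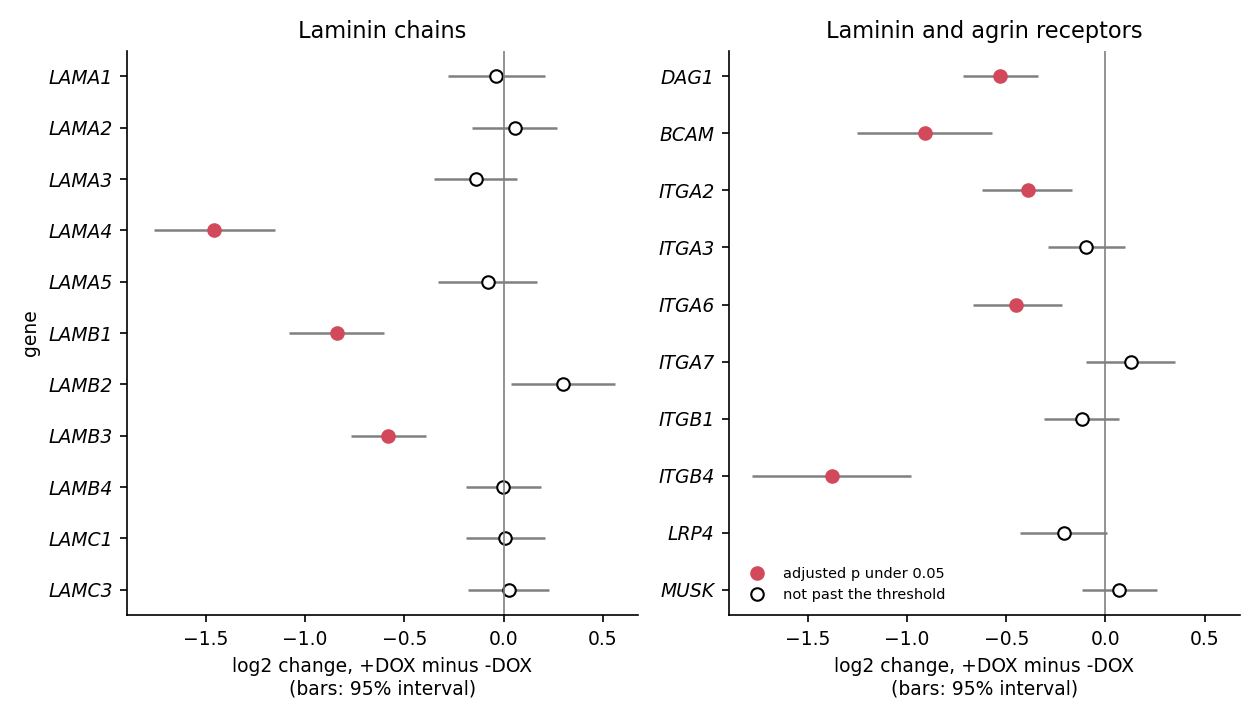
Log2 change, +DOX minus -DOX, of 11 laminin chains (left) and of dystroglycan with 9 laminin and agrin receptors (right). Points are limma estimates, bars their 95% intervals, and filled points passed the threshold. LAMA4, LAMB1 and LAMB3 lie to the left of 0, as do DAG1, BCAM, ITGA2, ITGA6 and ITGB4, and no filled point lies to the right.

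None of 9 basement membrane collagens passed in limma, against 1 at an unadjusted p under 0.05, and their changes lay between -0.21 (COL4A5, SE 0.084) and 0.19 (COL15A1, SE 0.094), with a median of -0.06. Of 14 other basement membrane glycoproteins 2 fell and 1 rose, with a median of -0.02. NPNT, which encodes the integrin ligand nephronectin, changed by -0.61 (SE 0.11) and FBLN1, a fibulin, by -0.43 (SE 0.087), and FRAS1, which anchors embryonic epithelium to its mesenchyme, by 0.46 (SE 0.094). Each of these 3 calls depended on the set of experiments. NPNT did not pass without experiment 2 (limma adjusted p = 0.0508) or 3 (0.0754), FBLN1 with any 1 of them left out (0.0524 to 0.108), and FRAS1 without experiment 1 (0.0824) or 3 (0.102) or without the experiment term (0.316). The NPNT signal lay below the array median, at percentile 39.4 of the tested probe sets.

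Among partners and modifiers of dystroglycan 2 of 16 genes passed in each of 2 lists, a smaller share than the 16.0% of all genes. In the dystrophin complex 1 rose and 1 fell, with a median of 0.0046. SNTB1, a syntrophin adaptor, had log2 values of 10.09, 10.16 and 10.12 on the +DOX arrays, against 9.53, 9.36 and 9.25 on the -DOX arrays (log2 change 0.74, SE 0.094, limma adjusted p = 0.00338). UTRN, the dystrophin relative of non-muscle cells, changed by -0.46 (SE 0.084), a call lost without experiment 1 (limma adjusted p = 0.0571) or 2 (0.0623) and without the experiment term (0.0774). Of 16 measured genes that build the laminin-binding sugar chain of dystroglycan 2 rose and none fell, with a median of -0.08. These were RXYLT1 (0.33, SE 0.087), which adds xylose to the chain, and the N-acetylgalactosamine transferase B3GALNT2 (0.36, SE 0.085). RXYLT1 passed narrowly (limma adjusted p = 0.0494). B4GAT1 of the same list, named after its value was seen, changed by -0.34 (SE 0.093) and narrowly missed (limma adjusted p = 0.0528). B3GALNT2 (limma adjusted p = 0.0796 to 0.141) and RXYLT1 (0.0786 to 0.265) did not pass with any 1 of the experiments left out.

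Genes for the heparan sulfate carried by perlecan and agrin were called in 5 of 30 cases, a share near the 16.0% of all genes. Of these calls 4 were lower and 1 higher, and the list median was -0.02. NDST1, which starts sulfation of the chain, changed by -0.70 (SE 0.11), the sulfotransferase HS6ST1 by -0.46 (SE 0.086), the N-acetylglucosamine transferase EXTL2 by -0.44 (SE 0.088) and HS6ST2, a relative of HS6ST1, by 0.45 (SE 0.082). The remaining call, named after its value was seen, was the epimerase GLCE (-0.40, SE 0.094). NDST1 did not pass without experiment 3 (limma adjusted p = 0.0514) or the experiment term (0.0674), HS6ST1 without experiment 2 or 3 (0.0749 and 0.0776) and HS6ST2 without experiment 3 (0.071). EXTL2 did not pass with any 1 of the experiments left out (0.0561 to 0.113) or without the experiment term (0.0549). The signals of HS6ST2 and EXTL2 lay below the array median, at percentiles 37.5 and 45.9 of the tested probe sets. Of 10 cell-surface heparan sulfate proteoglycans GPC4, a glypican, alone passed, with a change of 0.58 (SE 0.12; median of the list -0.05), and its call was lost without experiment 3 (limma adjusted p = 0.0783) and without the experiment term (0.134). Of 15 proteases that act on basement membranes the lysosomal protease CTSL alone passed, with a change of 0.53 (SE 0.097; median of the list -0.02), a call lost without experiment 2 or 3 (limma adjusted p = 0.0659 and 0.0828).

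**Figure D4:**
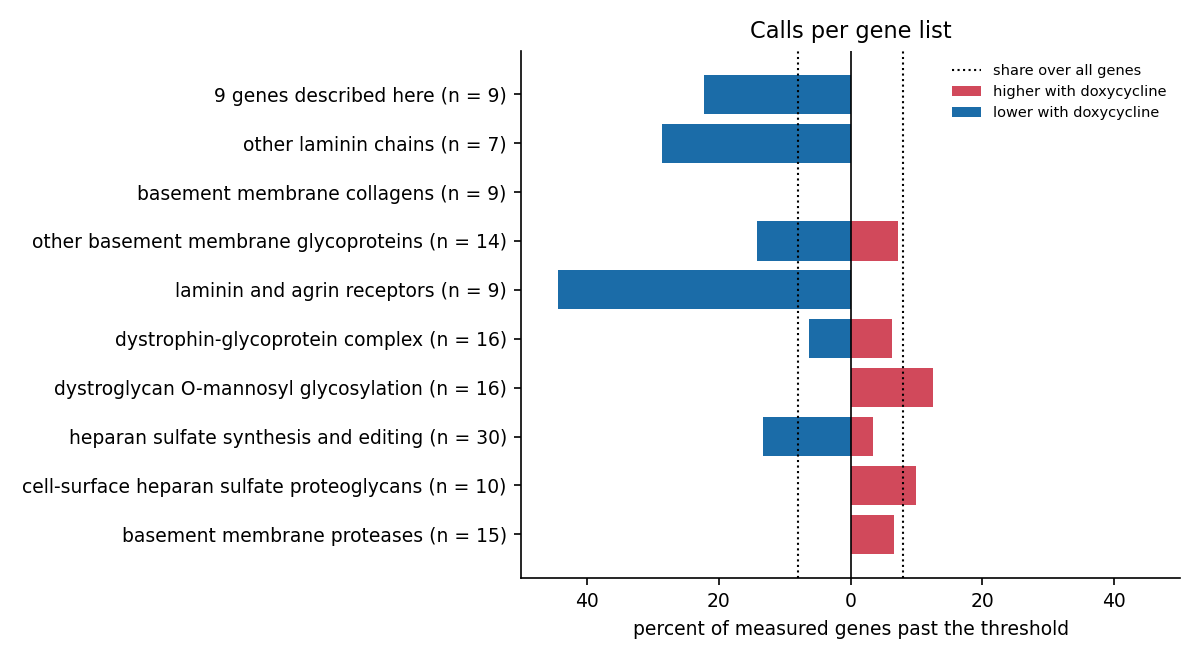
Percent of the measured genes of each list that passed the threshold, higher with doxycycline to the right and lower to the left, with the number measured in brackets and the shares over all genes (8.00% each way) as dotted lines. Calls among the 9 genes, the further laminin chains and the laminin and agrin receptors are all on the lower side, and none of the 9 collagens was called.

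Genes with a profile over the 6 arrays close to that of LAMB1 were found by Euclidean distance between log2 values centred on each gene's mean. They included TNFAIP2 (distance 0.109), EBP (0.111), LOC388022 (0.132) and HMGB3 (0.143). Their own changes lay between -0.75 and -0.85, beside -0.84 for LAMB1. Likeness in the change follows from this choice, since distance and change use the same values. The distances are a description over 6 arrays that share the 2 groups and 3 experiments.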

How the data were processed

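Expression was profiled on 6 Affymetrix arrays, 1 value per probe set. The deposited values are log2 signals that the authors made by the Robust Multichip Average in R 2.11.1, per the submitters' processing notes. The workbook holds the same values (largest difference 5.0e-09) and supplied gene symbols and build 36 coordinates, the build being read from its chromosome accession versions. Of 33297 probe sets, 4428 were controls and 976 had no value, 133 of them counted in both, which left 28026 for testing, with no filter on dim probe sets. Median log2 signals per array lay between 7.42 and 7.52, and precision is limited by the number of arrays. Symbols were updated through RefSeq accessions (GRCh38.p14, names alone), and a gene with several probe sets was read from the brightest.

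The comparison used limma 3.58.1 (lmFit, eBayes; R 4.3.3) with a term for the experiment, Benjamini-Hochberg adjustment over all 28026 probe sets and a threshold of 0.05. The design text states the pairing; deviations from group means correlated at 0.482, 0.165 and 0.0993 within experiments 1, 2 and 3. Across experiments the correlation was 0.278 for +DOX 2 with -DOX 3 and 0.286 for +DOX 3 with -DOX 2. Both were above the values within experiments 2 and 3. Cross pairs with an array of experiment 1 gave -0.367 to -0.273. The pairing thus rests on the design text and the replicate numbers of the sample titles. The workbook's array names were not used to check it. How a swap between experiments 2 and 3 would alter the results was not tested. The procedure was also run on simulated arrays with known changes, and no recovery or false-call rate is given here. The genes and lists were chosen with earlier results of these data known. From each of 9 lists, up to 4 called genes with the smallest p were named, or 2 where none passed. Results for some genes are not reported here, and these genes were left out of the lists. Alternatives were no experiment term, the methods' t-test (paired, 1% level), trended and robust variance, equal medians, quantile normalization, bright probe sets alone, probe sets with 1 gene alone, and leaving out each experiment.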

Additional observations from a re-analysis of the deposited data

How the results depend on the processing

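With 3 arrays a group, small changes of single genes are near the limit of what these arrays resolve. LAMB1 and DAG1 kept their direction and stayed past the threshold in all 9 alternatives fitted with limma, with adjusted p between 0.000404 and 0.0226 for LAMB1 and between 0.00205 and 0.0427 for DAG1. With the methods' t-test neither passed after adjustment (LAMB1 -0.84, adjusted p = 0.257; DAG1 -0.53, adjusted p = 0.22), where 0 of 28026 probe sets, 0 of the 9 genes and 0 of the 126 genes of the lists passed, against 4449 probe sets at an unadjusted p under 0.05. At its 1% level, unadjusted, 1165 probe sets, 1 of the 9 genes and 4 of the list genes passed. Without the replicate block 2409 probe sets passed, against 3580 with it, and the 9 genes kept their 2 calls. Leaving out 1 experiment gave 1355 to 2853 probe sets (1909 without experiment 2, 1355 without experiment 3), 2 of the 9 genes each time, and 6 to 11 of the list genes, against 20 with all arrays (11, 9 and 6 without experiments 1, 2 and 3); fewer arrays enter these fits. Among uncalled genes the sign of the estimate turned for LAMA5 without experiment 2 (0.01, with -0.21 at the other end of the range over experiments left out), for LAMC1 with quantile normalization (-0.0024) and without experiment 3 (-0.04, the range reaching 0.06), for NID1 without experiment 1 (-0.00013, the range reaching 0.0026), and for NID2 with equal array medians (0.02), quantile normalization (0.01) and without experiment 3 (0.05); the cause was not tested. Leaving out 1 experiment moved the LAMB1 minus LAMB2 difference between -1.22 and -1.07 and the NID1 minus NID2 difference between -0.05 and 0.05. NID1 and NID2 have no value among bright probe sets alone. Each gene has 1 probe set, so averaging probe sets changed nothing.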

Other observations

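NID1 differed between +DOX and -DOX arrays by 0.0042, -0.0013 and 0.0011 on the log2 scale in experiments 1, 2 and 3, while its level differed by more than that between experiments. No other probe set of the 28026 tested had changes this small in all 3 experiments. This was seen in the values first and is given as a description. The NID1 signal lay below the array median, and no detection call is given.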
